A study of Spirodela polyrhiza with 12 samples.

Results

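A set of 49 genes of the giant duckweed, Spirodela polyrhiza, kept their transcript level within 1.5-fold at middle temperature and dropped steeply at high temperature. They were chosen from 18099 genes by their measured values. FPKM (fragments per kilobase, relative to library size) was divided by each library's median, multiplied by 15 and averaged per group, and 0.5 was added. A member had a mean of at least 5 in some group and a ratio of middle to indoor temperature between 0.667 and 1.5. Its ratio of high to indoor and of high to middle temperature was 0.4 or less, and it was outside the 100 most abundant indoor genes. The same group means therefore fix the direction and the least size of every fall below, which are given as a description.

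The plant body of a duckweed is reduced largely to floating fronds that multiply by budding off daughter fronds. Heat makes plant cells activate heat stress transcription factors and accumulate chaperone proteins, while transcripts of many other genes decline. A transcript level falls when synthesis slows or decay quickens, and sequencing of steady RNA does not separate these. In bulk tissue, fewer cells of a type and less RNA per cell cannot be told apart either.

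Poly(A)-selected RNA was sequenced from 12 leaf libraries, 4 labelled indoor temperature (the control, CK), 4 labelled Middle temperature (MTS) and 4 labelled High temperature (HTS). The sources used here do not give the degrees, the length of exposure or the clone, and no treatment other than temperature is labelled. The estimated counts per library totalled 23655239 to 32711880. The 10 most abundant genes of a library took 15.3% to 19.8% of its counts at high temperature, against 4.51% to 5.39% at indoor and 3.75% to 4.61% at middle temperature. The median FPKM by which libraries were scaled was 12.1 to 14.8 at high temperature, 21.5 to 22.8 at indoor and 22.4 to 26.0 at middle temperature. The table lists identifiers without gene names, so no member can be given a function, the leaf label could not be set against marker genes, and it is not known whether any member is an aquaporin, the family in the series title. Members other than 2 named by identifier are given by their rank in mean indoor FPKM.

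The members were mostly genes of low level that kept a small part of it at high temperature. Their mean FPKM ran from 5.29 to 545 at indoor temperature, with a median of 13.01 against 24.1 over the 11841 genes with a group mean of at least 5 on the scale of the rule, and from 6.48 to 508 at middle temperature, with a median of 14.1. At high temperature it ran from 0.380 to 98.4, with a median of 2.34, and 3 members had a mean under 1. At indoor temperature 17 members had a mean of at least 20 and 14 a mean under 10. Together they held 0.198% ± 0.0297 of the counts at indoor temperature, 0.195% ± 0.0161 at middle and 0.0355% ± 0.00818 at high temperature (SD, n = 4).

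On the scale of the rule, the ratio of high to indoor temperature ran from 0.131 to 0.4, with a median of 0.317, and 18 members were at 0.3 or less. The median log2 ratio was -1.66, against -0.03 over the 15209 genes tested. The ratio of high to middle temperature had a median of 0.347, with a median log2 ratio of -1.53 against -0.01 over the genes tested. Between middle and indoor temperature 35 members were lower and 14 higher, in ratios of 0.725 to 1.37. The median log2 ratio was -0.14, against 0.00034 over the genes tested and -0.06 over the 11841 genes with a group mean of at least 5. In deposited FPKM, without the division by the library median, the ratio of high to indoor temperature had a median of 0.176 and ran from 0.0401 to 0.236. The size of the fall thus depends on the scaling, since the median gene itself had a lower FPKM in the high-temperature libraries.

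**Figure D1:**
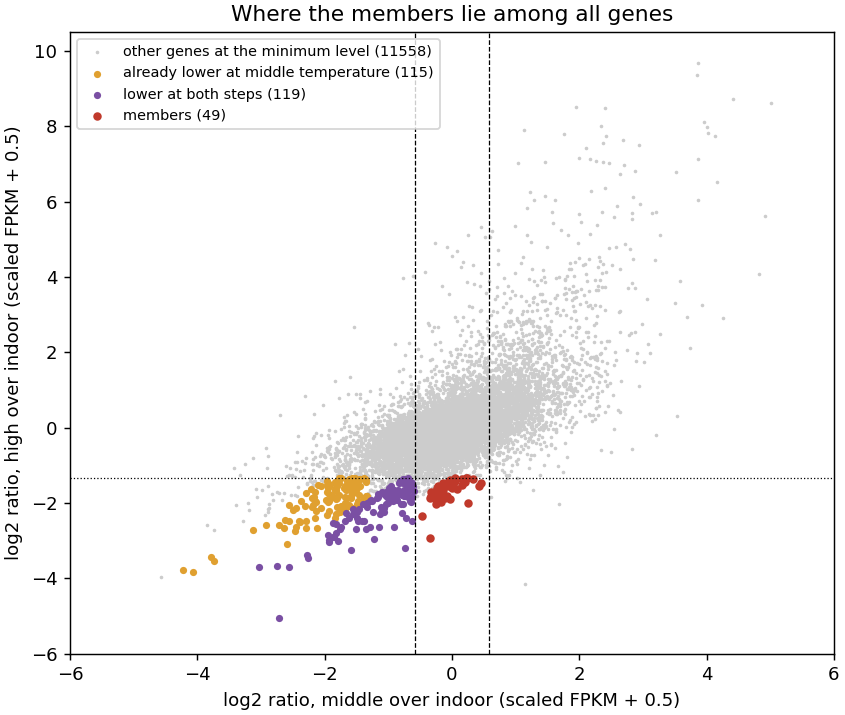
Each point is a gene with a group mean of at least 5, placed by its log2 ratio of middle to indoor temperature (horizontal axis) and of high to indoor temperature (vertical axis), both on scaled FPKM + 0.5. Dashed lines mark the band of 1.5 and the dotted line the limit of 0.4. The 49 members (red) lie at the lower edge of the cloud between the dashed lines. To their left are 119 genes lower at both steps (purple) and 115 already lower at middle temperature (orange). Other genes between the dashed lines and under the dotted line had a ratio of high to middle temperature above 0.4, a limit that is not drawn.

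The most abundant member was Spipo14G0014800.v2, which alone made up 36.7% of the members' summed mean FPKM at indoor temperature. Its FPKM was 408, 458, 588 and 724 in indoor replicates 1 to 4, 492, 536, 435 and 571 in the middle replicates and 134, 108, 54.6 and 96.8 in the high replicates. All 4 high-temperature libraries were far below the 8 others, and the middle libraries lay inside the indoor range. Mean FPKM was 545 ± 142 in the indoor, 508 ± 59 in the middle and 98.4 ± 33.2 in the high group (SD, n = 4), and the ratio of high to indoor temperature was 0.292 on the scale of the rule. Its counts at high temperature were 6590, 4178, 2156 and 4578 in replicates 1 to 4.

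The next members by level were about an order lower. The member ranked 2 had an FPKM of 70.4, 111, 58.4 and 84.6 in the indoor libraries, 93.3, 71.1, 72.8 and 72.7 in the middle ones and 13.5, 13.1, 17.2 and 6.92 in the high-temperature ones, in replicates 1 to 4 as in all lists here. For the member ranked 3 the values were 63.2, 73.5, 55.7 and 79 in the indoor libraries, 66.7, 111, 67.1 and 55.6 in the middle ones and 13.6, 15.4, 22.2 and 7.87 in the high-temperature ones. The member ranked 4 was at 56, 68.1, 57.6 and 49.1 in the indoor libraries, 60.4, 44.6, 74.7 and 65.7 in the middle and 11.6, 17.2, 9.87 and 9.43 in the high libraries. In each of these the lowest indoor or middle library was more than 2 times the highest high-temperature library in deposited FPKM. After scaling, the gap was below 2 times for the members ranked 3 and 4. As log2 levels relative to the indoor mean, these libraries were at -0.43 and -0.90 for rank 3 and at -0.59 and -1.11 for rank 4. For rank 2 they were at -0.42 and -1.51. The ratios of high to indoor temperature on the scale of the rule were 0.257, 0.356 and 0.342 in turn.

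Even levels within the indoor and the middle group were clearest in the members ranked 33, 15 and 10, where the larger of the 2 coefficients of variation of scaled FPKM was 12.4%, 13.2% and 15.7%. The member ranked 10 had the smallest indoor spread of all 49, with a coefficient of variation of 6.96%. Its FPKM was 27.6, 30.9, 25.7 and 28.7 in the indoor libraries, 19.3, 28.6, 29.1 and 29.6 in the middle ones and 7.02, 4.99, 5.13 and 5.29 in the high-temperature ones. For the member ranked 15 the indoor values were 23.5, 21.8, 19.9 and 25.2, the middle values 21.2, 28, 18.5 and 21.2 and the high values 4.55, 5.96, 3.24 and 4.08. The member ranked 33 was at 11.8, 10.3, 8.54 and 11.6 in the indoor libraries, 12.1, 14.9, 12.9 and 11.4 in the middle ones and 2.6, 2.74, 2.24 and 1.65 in the high-temperature ones. In these 3 members the groups at indoor and middle temperature overlapped, and no high-temperature library came near either.

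Other abundant members varied more between libraries at indoor or middle temperature, and their high-temperature libraries still lay below both groups. The member ranked 5 was at 20.3, 30.7, 48.2 and 51.5 in the indoor and 66, 34.7, 53.4 and 25.4 in the middle libraries, and at 9.49, 9.49, 6.75 and 5.82 in the high libraries. The member ranked 12 was at 15.7, 24.5, 21.5 and 42.2 in the indoor libraries, 25.5, 26.8, 27.1 and 23.5 in the middle ones and 7.01, 3.58, 2.25 and 3.43 in the high-temperature ones. Its middle libraries were close together while its indoor libraries spread more than 2-fold. The member ranked 8 was at 31.9, 28.3, 46.6 and 37.1, then 33.2, 44.2, 33.3 and 31.1, then 7.68, 8.84, 5.14 and 6.54 in the indoor, middle and high libraries. For the member ranked 11 the indoor values were 22.1, 27, 36.6 and 26.9, the middle values 22.9, 20.7, 29.9 and 26.3 and the high values 6.53, 4.25, 6.46 and 2.01. In the member ranked 7 the middle mean was the higher one, but the libraries overlapped, at 45, 40.5, 79.7 and 48.4 in the middle group against 31.7, 34.8, 25.5 and 53.1 at indoor and 9.14, 10.2, 9.76 and 2.78 in the high-temperature ones. Its ratio of middle to indoor temperature, 1.37, was the highest among the members.

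**Figure D2:**
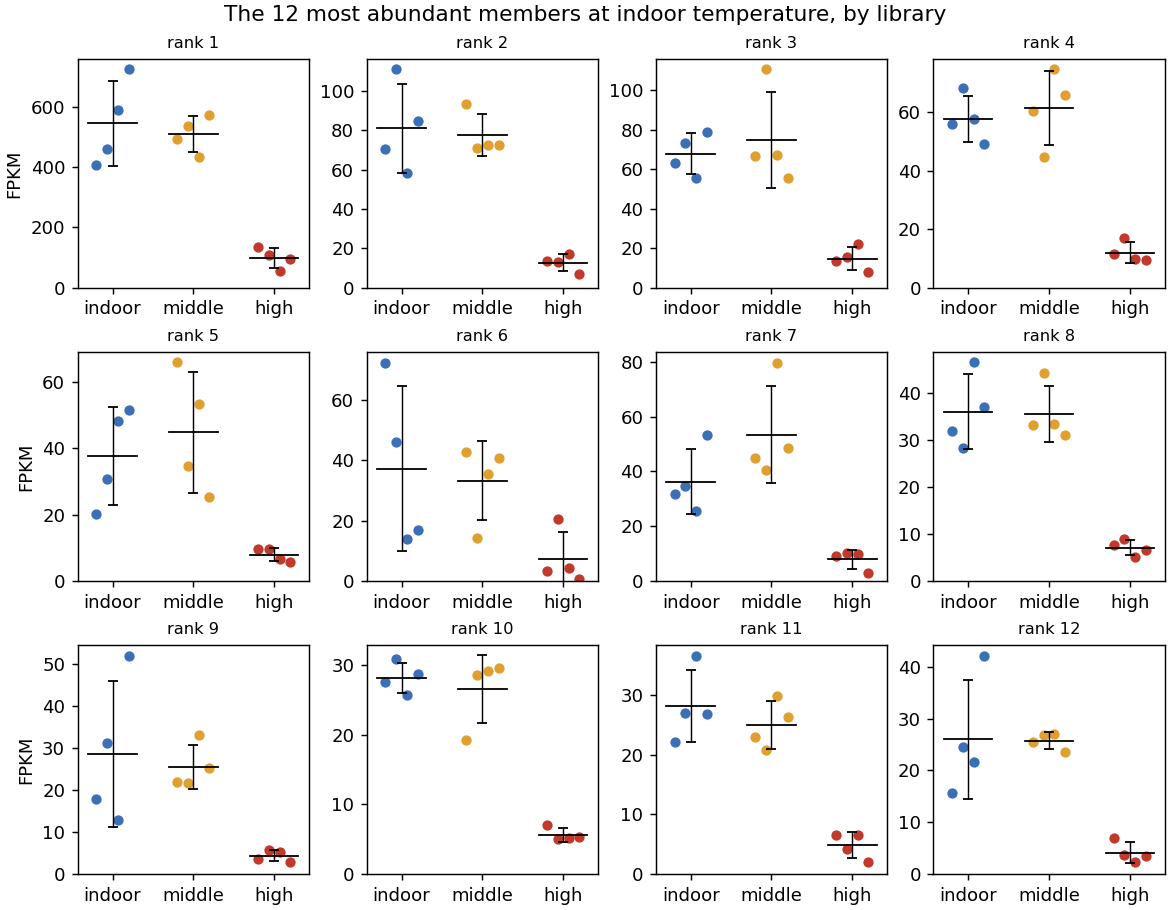
FPKM (vertical axis, from 0) of the 12 members of highest mean indoor FPKM in each library, by group (horizontal axis). Points are libraries in replicate order, bars are the group mean and SD (n = 4). In 11 of the 12 members every high-temperature library is below the 8 others, and in the member ranked 6 one high-temperature library, at 20.5, lies inside the other groups.

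The largest fall belonged to Spipo0G0160300.v2, ranked 39 by indoor level, with a ratio of high to indoor temperature of 0.131. Its FPKM was 28.5, 5.81, 2.02 and 1.48 in the indoor replicates, 1.34, 5.53, 23.2 and 1.03 in the middle replicates and 0.724, 0.426, 0.246 and 0.122 in the high replicates. A single library held 75.4% of the indoor sum and another 74.6% of the middle sum. The lowest middle library, at 1.03, was above the highest high-temperature library, at 0.724, before scaling, but by less than the libraries of a group differed from each other. After scaling by the library medians these libraries overlapped, and the size of the fall rests on single libraries. Without indoor replicate 1 its ratio of high to indoor temperature was 0.344 and that of middle to indoor 2.09, and without middle replicate 3 the latter was 0.301, outside the rule.

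The second largest fall was more even among the high-temperature libraries. The member ranked 24 was at 13.4, 15.5, 3.83 and 25 in the indoor libraries, 10.1, 14.5, 13.9 and 5.48 in the middle ones and 1.44, 1.15, 1.59 and 1.29 in the high-temperature ones, with a ratio of 0.197 to indoor temperature. Its high-temperature libraries differed little from each other and all lay under the others. Without indoor replicate 3 its ratio of middle to indoor temperature was 0.589, and without middle replicate 3 it was 0.655, both outside the rule. The member ranked 48, with the fourth largest fall, had indoor values of 6.38, 6.49, 5.21 and 6.98, middle values of 5.53, 9.36, 11.5 and 6.68 and high values of 0.822, 0.721, 0.236 and 0.706. Its high-temperature counts were 6, 5, 2 and 5, so its ratio of 0.249 is coarse. Over the members, the count summed over the 4 high-temperature libraries ran from 18 to 17502, with a median of 357.

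Some members had erratic libraries, and their group means hide this. In the member ranked 19, the third largest fall, indoor replicate 3 held 87.7% of the indoor sum, with an FPKM of 2.11, 2.52, 66.9 and 4.76 in the indoor libraries. Its middle libraries were at 12.4, 37.2, 18.3 and 3.96 and its high libraries at 1.73, 1.04, 6.05 and 1.57, so 3 of 4 indoor libraries were within the high-temperature range. Without indoor replicate 3 its ratio of high to indoor temperature went from 0.244 to 1.299, and without high replicate 3 it was 0.153. The member ranked 6 was at 72.2, 46, 13.9 and 17 in the indoor libraries, 42.8, 14.1, 35.5 and 40.7 in the middle ones and 3.33, 20.5, 4.33 and 0.581 in the high-temperature ones. There, high replicate 2 alone exceeded 2 indoor libraries and 1 middle library, and without it the ratio of high to indoor temperature went from 0.314 to 0.134. In 7 members, leaving out a single library moved this ratio by more than 1.5 times, and in 1 of them, that ranked 19, it then rose past 0.5.

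A pair of members had libraries with a count of 0. The member ranked 14 was at 30.8, 34.8, 0 and 29.8 in the indoor libraries, 24.7, 38.4, 25 and 0 in the middle ones and 20.4, 0, 0 and 0 in the high-temperature ones. It was either at 0 or between 20.4 and 38.4, with counts of 180 to 336 where present, and no library was in between. Its lower mean at high temperature reflects 3 libraries at 0 there, against 1 in each of the other groups, and not a graded change. The member ranked 42 was at 0, 8.72, 7.32 and 17 in the indoor libraries, 7.22, 16.6, 0 and 7.87 in the middle ones and 0, 0, 1.06 and 3.38 in the high-temperature ones, with at most 92 counts in any library. Without high replicate 4 its ratio of high to indoor temperature went from 0.305 to 0.145. Both genes were short, at 0.229 and 0.145 of the median length, and whether counting split their reads with other genes was not tested.

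In most members the high-temperature libraries did not overlap the others, though a gap of any size counted. In 40 of 49, every high-temperature library was below all 8 others in scaled FPKM, which held for 5.27% of the genes tested. Some of these gaps were small. In the member ranked 41, middle replicate 1 was at a log2 level of -0.65 relative to the indoor mean and high replicate 4 at -0.66. Against the indoor libraries alone 43 did not overlap, where 14.0% of genes tested lay lower without overlap, and against the middle libraries 41, with 15.2% of genes. In edgeR's quasi-likelihood test with TMM scaling, 44 members were called lower at high than at indoor temperature, against 15.8% of genes called lower. Between high and middle temperature 41 were called lower, against 14.5% of genes. The rule used both contrasts, so these counts describe the members and support nothing. The 9 members with overlap were those ranked 6, 14, 17, 19, 22, 29, 30, 39 and 42.

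Between middle and indoor temperature edgeR called 0 members, where 36.9% of genes tested were called in either direction. At an unadjusted p under 0.05 the number was also 0. DESeq2 called 0 and limma on log2(FPKM + 1) called 1, higher at middle temperature. In scaled FPKM the libraries of these groups separated in 0 members, against 37.7% of genes tested. In deposited FPKM those of the member ranked 38 did, at 11.3 or less in the indoor and 12.3 or more in the middle libraries. The rule admits only ratios within 1.5-fold, and a missing call does not show that a level was the same.

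**Figure D3:**
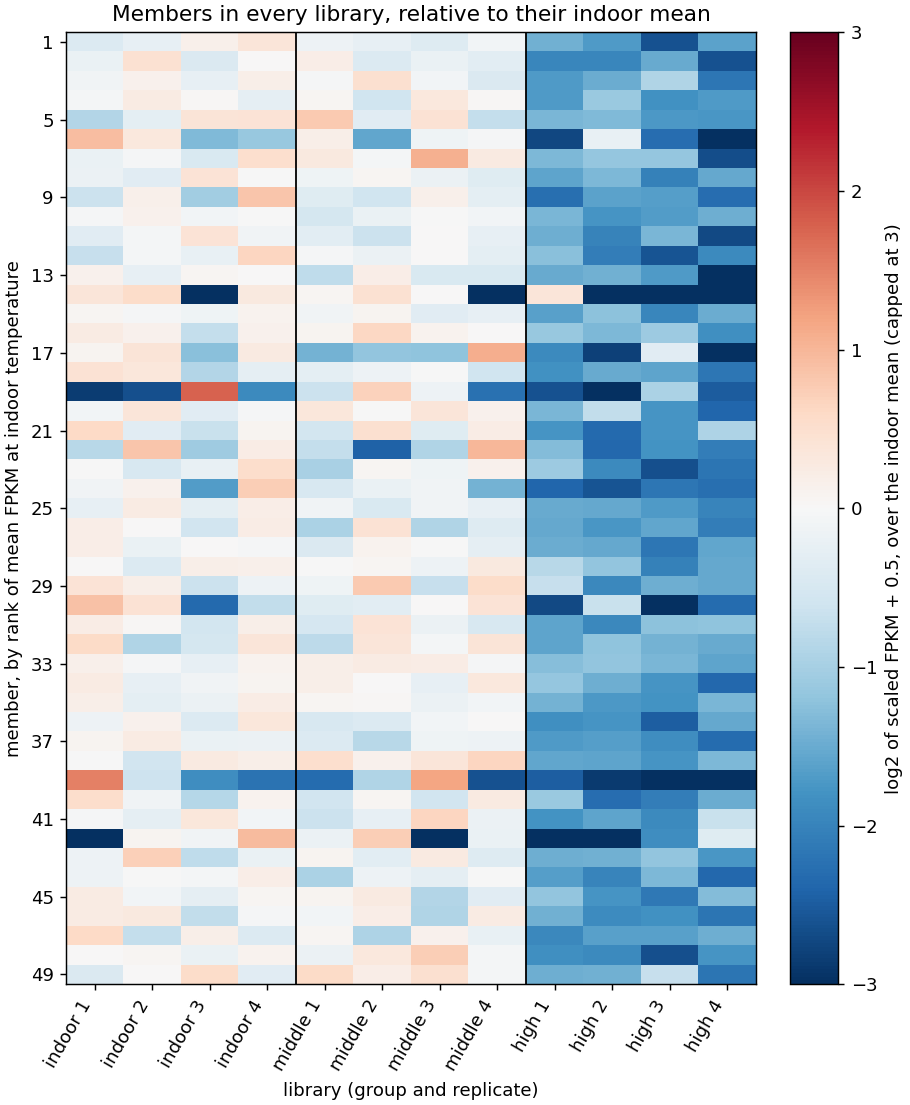
Colour gives the log2 of scaled FPKM + 0.5 relative to the member's indoor mean, capped at 3 in both directions, for the 49 members (rows, by rank of mean indoor FPKM) in the 12 libraries (columns, by group and replicate). The high-temperature columns are blue in nearly every row, while rows 14, 19, 22, 30, 39 and 42 also hold cells under -2 at indoor or middle temperature.

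The members did not stand at the same level in all libraries of a group. Relative to the indoor mean, their median log2 level was -1.53, -1.66, -1.77 and -1.92 in high replicates 1 to 4. High replicate 4 was the lowest of its group for 22 members, or 44.9%, against 20.5% of the 11841 genes with a group mean of at least 5. High replicate 1 was the lowest for 3 members. The share of counts in the 10 most abundant genes was 17.1%, 15.3%, 18.2% and 19.8% in these libraries, and the median FPKM 14.8, 14.4, 13.7 and 12.1. The median FPKM thus had the same order as the members' level, and its part in that order was not tested.

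Among the controls, indoor replicate 3 stood lower. It was the lowest indoor library for 28 members, or 57.1%, against 25.9% of genes with a group mean of at least 5. The members' median log2 level was -0.24 there and 0.01, 0.01 and 0.10 in indoor replicates 1, 2 and 4. The members are mostly low in level, 41 having a highest group mean of 5 to 20 on the scale of the rule. Of all 5632 genes in that range, 31.2% were lowest in indoor replicate 3 and 27.0% of them were lowest in high replicate 4. At middle temperature the members' median log2 level was -0.16, 0.02, -0.10 and -0.09 in replicates 1 to 4.

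**Figure D4:**
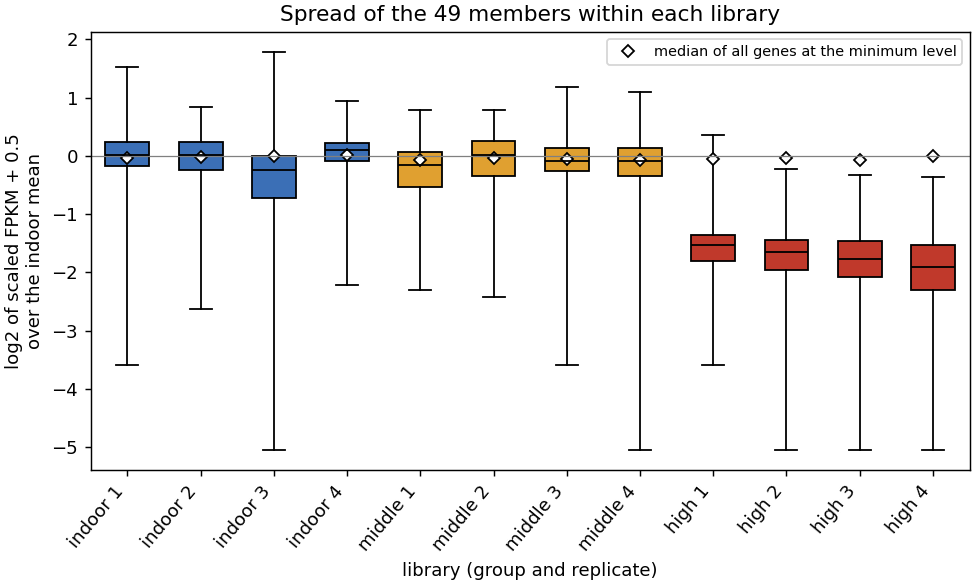
Boxes give the median and quartiles, and whiskers the full range, of the log2 level relative to the indoor mean (vertical axis) over the 49 members in each library (horizontal axis). Diamonds are the median over all genes with a group mean of at least 5, which stays between -0.08 and 0.01, while the members' medians drop to between -1.92 and -1.53 in the high-temperature libraries.

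Replicate spread was wide in these genes. The coefficient of variation within a group had a median over the members of 27.4% among indoor, 27.8% among middle and 38.5% among high-temperature libraries. Over genes with a highest group mean of 5 to 20 the medians were 20.05%, 17.4% and 23.0%. A gene enters by its group means, so a library of extreme value can bring it in. When each library was left out in turn, 21 members met the rule every time, 5 failed once and 23 failed in 2 or more of the 12 rounds. Among those that always met it were Spipo14G0014800.v2 and the members ranked 2, 4, 5, 8, 9 and 12. Leaving out high replicate 4 removed 15 members and leaving out indoor replicate 1 removed 10, the most of any library in their groups.

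Genes chosen without some libraries were also measured in those libraries, which had no say in that choice. Replicates are not labelled as separate cultures, and the rule was set with earlier results of these data known. The left-out libraries may therefore not be fully independent. The rule was applied to 3 replicate numbers of each group, and the genes it chose were then measured in the 3 libraries of the number left out. It chose 69, 60, 70 and 37 genes with numbers 1 to 4 left out, of which 38, 33, 39 and 30 were among the 49 members. In the left-out libraries, 16, 15, 19 and 18 of these had high-temperature ratios of 0.4 or less to both other groups. That is 23.2%, 25%, 27.1% and 48.6%, where 0.991%, 1.48%, 1.52% and 2.52% of all genes with a mean of at least 5 did so. Over the 4 rounds, in which a gene can recur, 68 of 236 choices, or 28.8%, met both limits, against 1.63% of all genes. With the band for middle temperature also required in the left-out libraries, 56 of 236 choices, or 23.7%, met the limits, against 0.965% of all genes. All genes with a mean of at least 5 had less replicate spread than the members. Their median coefficient of variation at high temperature was 20.8%, against 38.5% in the 49 members. Shares for genes of like level and spread are not given, and the part of spread in these shares was not tested.

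In the left-out libraries the direction recurred more often than the full size. The high-temperature library was below both others for 59 of 69, 43 of 60, 58 of 70 and 36 of 37 genes, or 85.5%, 71.7%, 82.9% and 97.3%. Among all genes with a mean of at least 5, this held for 31.3%, 30.6%, 34.2% and 33.3%. The median log2 ratio of high to indoor temperature was -1.26, -1.21, -1.02 and -1.53 in the left-out libraries. In the libraries that chose the genes it was -1.65, -1.75, -1.66 and -1.63, and over all genes in the left-out libraries between -0.04 and 0.03. For the chosen genes in the left-out libraries, the median log2 ratio of middle to indoor temperature was -0.36, -0.26, 0.17 and -0.32. That of high to middle temperature was -0.93, -0.98, -1.28 and -1.38. With numbers 1, 2 and 4 left out, the median was thus already below the indoor level at middle temperature. The middle level was within 1.5-fold of the indoor level for 56.5%, 53.3%, 65.7% and 78.4% of the chosen genes, and for 54.5% to 58.3% of all genes. Each ratio here rests on a single library per group.

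**Figure D5:**
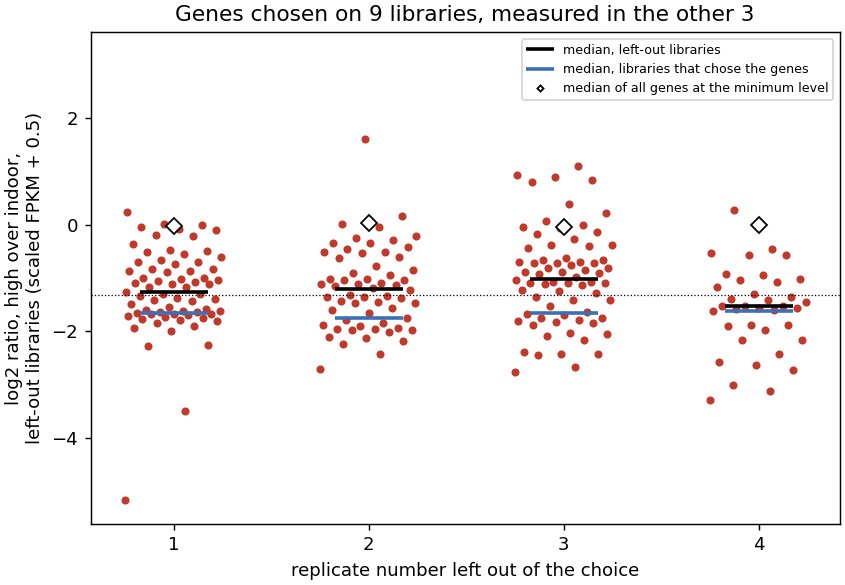
Points are genes chosen by the rule without the replicate number on the horizontal axis (69, 60, 70 and 37 genes), placed by the log2 ratio of high to indoor temperature in the 3 left-out libraries (vertical axis). Black bars are their medians, blue bars the medians in the libraries that chose them, diamonds the medians of all genes with a mean of at least 5, and the dotted line is the limit of 0.4. The black bars lie between -1.53 and -1.02, under the diamonds near 0 and above the blue bars.

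Features that played no part in the rule were set beside those of all genes. Relative transcript length, taken from the ratio of count to FPKM and divided by the median over genes with a mean of at least 5, had a median of 0.964 in the members. It ran from 0.145 to 4.35, with 10 members under 0.5 and 3 over 2. The members bore 22 of the 33 numbers that stand before the G in the identifiers, with at most 7 members on one number. That was the number 0, which 14.3% of the members and 8.31% of genes with a mean of at least 5 carried. It was not particular to the members. Of the 115 genes already lower at middle temperature 15.7% carried it, and of the 119 genes lower at both steps 15.1%. No 2 members followed each other directly in the order of identifiers.

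Genes listed next to a member in that order were also measured. Of 55 such neighbours with a mean of at least 5, 6 had a ratio of high to indoor temperature of 0.4 or less, or 10.9%, against 3.52% of 11841 genes. Their median log2 ratio was -0.36, against -0.03, and these differences were not tested. A stretch of 10 listed genes on number 28 held the members ranked 7 and 9. In it, 6 of 9 genes with a mean of at least 5 were at 0.4 or less, 4 of them not members. The members ranked 7 and 9 are at 0.4 or less by the rule. The stretch was drawn around them, from the gene before the first to the gene after the second. It also held 3 of the 6 low neighbours, and outside it 3 of 51 neighbours were at 0.4 or less, or 5.88%. The gene listed just before the member ranked 9 had a mean FPKM of 62.9 ± 14.6 in the indoor group, 9.66 ± 3.34 in the middle group and 0.75 ± 0.44 in the high group (SD, n = 4). Its ratio of middle to indoor temperature was 0.152, against 0.843 in its neighbour ranked 9, which had an FPKM of 18, 31.2, 13 and 52.1 in the indoor libraries, 22, 21.8, 33.1 and 25.4 in the middle ones and 3.57, 5.72, 5.22 and 2.84 in the high-temperature ones. The order of identifiers was taken as the order along the genome without an annotation to check it, and neighbours that overlap or resemble each other can share reads.

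Beside genes that also ended low but were already lower at middle temperature, the members had a lower median level at indoor temperature. A group of 115 genes had a ratio of 0.4 or less at middle and at high temperature and stayed within 1.5-fold between these, and 119 genes were lower by at least 1.5-fold at both steps and ended at a ratio of high to indoor temperature of 0.4 or less. Their median indoor FPKM was 45.5 and 22.9, against 13.01 in the members, and their median FPKM at high temperature 6.27 and 3.70, against 2.34. The median coefficient of variation at indoor temperature was 42.1% and 32.2% in these groups and 27.4% in the members. Relative length had medians of 0.915, 0.921 and 0.964 in the same order. These differences were not tested, since genes are not replicates.

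The members have no sharp edge. The 3 nearest the limit of 0.4 had 0.3996, 0.3996 and 0.3985 as the larger of their high-temperature ratios, and the 3 nearest genes outside had 0.404, 0.405 and 0.407. A limit of 0.5 would admit 138 genes and one of 0.3 only 7. Of genes past both limits of 0.4, 20 lay outside the band for middle temperature, 12 with lower and 8 with higher middle levels. The members closest to that band had ratios of middle to indoor temperature of 0.725 and 1.37, and the closest genes outside 0.646 and 1.54.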

How the data were processed

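The deposited table gives FPKM and a whole-number estimated count per gene and library. The authors' steps are known from the submitters' processing notes, which list StringTie 1.3.4d, HISAT2 2.0.4, cutadapt 1.9, UMI-tools, edgeR and DESeq2 with no roles. For the genome build and strand setting the sources used here give nothing. Estimated counts were used as deposited. A count of 4 occurred 1807 times and a count of 1 470 times. Counts are estimates, so 1 count is not read here as 1 independent molecule.

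Scaled FPKM used the library median over 12316 genes with FPKM of at least 1 in all 12 libraries. Of 18099 genes, 15209 reached an FPKM of 1 in 4 or more libraries and entered edgeR 4.0.16 (R 4.3.3, quasi-likelihood F-test, robust, TMM, a term per group). P-values were adjusted by Benjamini-Hochberg over these genes with a threshold of 0.05, and all 49 members were among them. Alternatives used DESeq2 1.42.0 and limma 3.58.1. Replicates are not labelled as separate cultures, so spread may be technical. No replicate libraries were identical, with a chi-square per degree of freedom of at least 48.9. Members, lists and tests were chosen with earlier results of these data known. Named are the member of highest indoor FPKM and that of largest fall. Members shown library by library, the low-level range, the stretch of neighbouring genes and the other falling groups were chosen after their values were seen.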

Additional observations from a re-analysis of the deposited data

Results flagged for a closer look

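Dixon's test sets the gap of the highest or lowest library against the range of its set. In 9 of 60 sets, each of 4 libraries, this share was above the 95% critical value. Chance exceeds it in about 1 of 20 sets that were not chosen by their values. The sets were the FPKM of 18 members in each group and the members' summed share and median level. Over all 49 members it was 13 of 147 sets. The rule used these FPKM values, and a library of extreme value can bring a gene in. Neither count can therefore be set against 1 in 20.

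Spipo0G0160300.v2 was at 28.5 in indoor replicate 1, a gap of 0.840 of the range. The member ranked 19 was at 66.9 in indoor replicate 3 (gap 0.959) and 6.05 in high replicate 3 (gap 0.863). The member ranked 14 was at 0 in indoor replicate 3 (gap 0.855) and at 20.4 in high replicate 1, its 3 other high libraries being at 0. For the member ranked 10, middle replicate 1 was low at 19.3 (gap 0.907) and high replicate 1 high at 7.02 (gap 0.853). The member ranked 7 was low at 2.78 in high replicate 4 (gap 0.860), and the member ranked 2 was high at 93.3 in middle replicate 1 (gap 0.923).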

How the results depend on the processing

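The number of genes that meet the rule, 49, rests on its settings. It was 509 on deposited FPKM with no further scaling (all 49 among them), 24 with upper-quartile scaling (20 of the 49), 32 with an offset of 1 (29 of the 49), 25 with a minimum level of 10, 138 with a limit of 0.5 and 7 with a limit of 0.3. With TMM-scaled FPKM it was 47, all members. With group medians in place of means it was 57, with 38 of the 49 among them. Leaving out each library gave 38 to 63 genes, with 34 (without high replicate 4) to 46 (without middle replicate 4) of the 49 among them. The median log2 ratio of high to indoor temperature, -1.66, was -2.23 without scaling and -1.70 to -1.56 with a library left out. Members called lower at high than at indoor temperature, 44, numbered 41 to 46 over all alternatives, and between high and middle temperature, 41 as reported, 40 to 47. The highest counts came from library totals alone and from limma, both without TMM scaling. Shares of all genes called are given for the main fit only, so the calls of the alternatives have no background beside them. Between middle and indoor temperature 0 members were called, 1 with limma on log2(FPKM + 1), and 0 to 1 with a library left out, the 1 being without indoor replicate 3. The held-out share, 28.8%, was 22.1% with an offset of 1, 28.4% with TMM and 38.8% without scaling, where 9.10% of all genes fell. With the replicate block edgeR called 43, 42 and 0 members. Same-numbered libraries correlated at -0.25 to 0.23 in their deviations from group means, so the numbers were not taken as pairs, and not every library correlated best with its own number. The causes of these shifts were not tested. Low counts at high temperature limit the ratios of the weakest members.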
